A study of Homo sapiens with 3 samples.

Results

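Transcripts of 43 cell cycle and DNA replication genes were measured in the human melanoma line 1205Lu, out of 17084 known genes on the array. The genes were taken by name, as every non-control probe carrying a listed gene symbol, and each gene was represented by its probe with the highest mean signal. They fell into 3 textbook classes. There were 5 G1 cyclins and kinases (CCND1, CCND2, CCND3, CDK4 and CDK6), 17 G1/S genes and 21 G2/M genes. The 1205Lu line came from a mouse lung metastasis of the line WM793. The original monolayer (OM) had 14 days in RPMI-1640 medium with 10% FCS. The melanoma bodies (MB), which are adherent 3-dimensional structures, had 14 days in human embryonic stem cell (hESC) medium, made of DMEM/F-12 and 20% KnockOut serum replacement. The new monolayer (NM) had those 14 days as bodies and then 10 days in RPMI-1640 with 10% FCS, and residual bodies were taken away before RNA extraction. Each population is represented by 1 culture of the same line and 1 Agilent 1-colour array, with all 3 arrays on the same slide. Medium and 3-dimensional growth differed together between the bodies and the monolayers, so they cannot be told apart.

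A dividing cell passes through G1, copies its DNA in S phase, and separates the copies in mitosis after G2. D-type cyclins with CDK4 or CDK6 act in G1 and, by phosphorylating the retinoblastoma protein, release E2F transcription factors, which turn on cyclin E and the replication genes. Later, FOXM1 and other factors turn on the kinases, kinesins and centromere proteins of mitosis. Loss of control over the G1 step is common in melanoma.

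With 1 array a population there was no test across samples, no p-value and no replicate error, and every ratio below is a description of these 3 arrays. In bulk RNA, a smaller share of cells in a phase and less transcript per cell cannot be told apart. Signals are in arbitrary units (a.u.) after scaling each array to the mean of GAPDH, ACTB and HSP90AA1, which divided MB by 0.978 and NM by 0.877. The only repeated measurement is over the 10 spots of a repeated probe, and it gave an SD of 0.06 to 0.07 for the log2 ratio of a single spot, which is technical error and leaves out variation between cultures. Of the 43 genes, 42 read well above background on all 3 arrays, and no spot of theirs was saturated. CCND2 was the exception. The melanoma label was checked with 10 markers, of which 9 were measured on at least 1 array. VIM, which many cell types share, CSPG4, S100B and SOX10 were bright, but the melanocyte lineage genes were dim or silent. In unscaled signal, MITF read 423, 718 and 551 a.u. on the OM, MB and NM arrays, PMEL 286, 209 and 271, and DCT 66.7, 62.8 and 64.1. MLANA read 31.3 and 39.5 a.u. on OM and MB and was at background on NM, and TYR stayed at background on all 3 arrays. Of 13 markers of other cell types on the array, 6 were measured on at least 1 array. Their summed unscaled signal was 6305, 4641 and 7941 a.u. on the OM, MB and NM arrays, and PTPRC (leukocytes), CDH5 (endothelium), EPCAM, CDH1 and KRT5 (epithelium) stayed at background on all 3. The endothelial PECAM1 cleared background on MB alone, at 87.7 a.u., as did DCN (fibroblasts), at 26.8 a.u. KRT14 (epithelium) read 213, 373 and 118 a.u. on OM, MB and NM. CD68 (macrophages), at 4716, 1727 and 4944 a.u., was 2.67-fold lower in MB than in OM after scaling. PDGFRB (mural cells and fibroblasts), at 1246, 2322 and 2737 a.u., was 1.91-fold higher in MB and 2.50-fold higher in NM than in OM. The part of these markers in the results below was not tested.

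The G1/S and G2/M genes are known to be read from promoters of different kinds, so the RefSeq promoter windows (GRCh38.p14, 250 bases before to 50 after the start) of the genes were searched on both strands. Of the 43 genes, 33 had a window (49 windows). An E2F motif, spelled TTTCCCGC, TTTCGCGC, TTTGCCGC or TTTGGCGC, lay in 10 of 13 G1/S genes, in 1 of 17 G2/M genes (CENPA) and in 3.99% of all 27305 genes with a window. The CHR motif (cell cycle genes homology region), spelled TTTGAA, lay in 0 of 13 G1/S genes, 10 of 17 G2/M genes and 18.2% of all genes. The CCAAT box lay in 9 of 13 and 15 of 17, against 39.7% of all. A further spelling of the E2F motif, GGCGGGAA, whose reverse overlaps TTTCCCGC, lay in 2 of 13 and 2 of 17 against 3.79% of all, and TATAAA in 0 of 13 and 1 of 17 against 14.0%. These 5 motifs were all that were searched. A match is not a bound site, and none of these shares was tested. No window was used for CCND1, CCND2, CCNE2, CDK2, MCM4, MCM5, FOXM1, AURKA, BIRC5 and TTK.

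**Figure D1:**
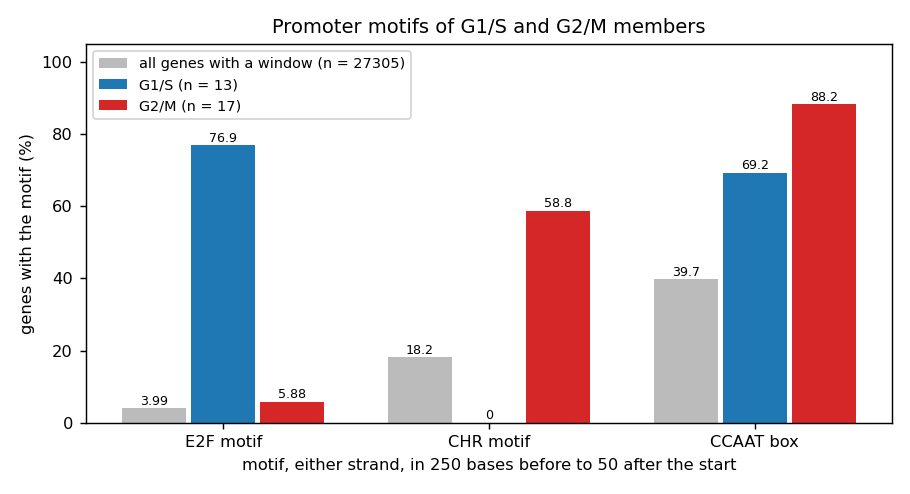
Share of genes (y axis, %) with each motif on either strand of the promoter window, for all 27305 genes with a window (grey), 13 G1/S genes (blue) and 17 G2/M genes (red). The E2F motif stands at 76.9% of G1/S genes and 5.88% of G2/M genes, the CHR motif at 0 and 58.8%, and the CCAAT box is above the share of all genes in both classes.

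For 4 genes of each class, the 120 bases just before the start are printed to show the motifs, chosen after their matches were seen. Capitals mark the E2F motif in the first 4 and the CHR motif in the last 4, on either strand. Within these stretches E2F1 and MCM6 hold 2 E2F matches each, the pair in MCM6 overlapping, and MKI67 holds 2 CHR matches. Further upstream, MCM6 has more E2F matches, beginning 152 and 148 bases before the start, and CDC20 a CHR match beginning at 178. In PLK1 and CCNB2 the CHR match begins 29 bases before the start.
E2F1 (chr20:33686386-33686505, minus strand): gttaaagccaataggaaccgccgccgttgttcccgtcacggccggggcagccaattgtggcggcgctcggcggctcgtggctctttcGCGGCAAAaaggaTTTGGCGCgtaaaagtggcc
E2F2 (chr1:23531234-23531353, minus strand): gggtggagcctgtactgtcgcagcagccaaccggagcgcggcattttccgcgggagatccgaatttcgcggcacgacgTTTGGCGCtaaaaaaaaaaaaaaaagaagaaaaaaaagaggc
CDC25A (chr3:48188418-48188537, minus strand): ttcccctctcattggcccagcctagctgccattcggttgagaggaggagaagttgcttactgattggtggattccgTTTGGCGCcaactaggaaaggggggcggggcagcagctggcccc
MCM6 (chr2:135876444-135876563, minus strand): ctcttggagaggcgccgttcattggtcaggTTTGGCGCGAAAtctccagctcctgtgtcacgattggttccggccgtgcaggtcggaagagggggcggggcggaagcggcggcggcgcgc
CDC20 (chr1:43358861-43358980, plus strand): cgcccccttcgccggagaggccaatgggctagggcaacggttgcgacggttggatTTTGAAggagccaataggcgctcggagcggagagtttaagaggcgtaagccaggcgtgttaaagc
MKI67 (chr10:128126424-128126543, minus strand): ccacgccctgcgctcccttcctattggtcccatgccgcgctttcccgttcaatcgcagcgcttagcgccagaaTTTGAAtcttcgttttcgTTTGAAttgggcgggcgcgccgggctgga
PLK1 (chr16:23678769-23678888, plus strand): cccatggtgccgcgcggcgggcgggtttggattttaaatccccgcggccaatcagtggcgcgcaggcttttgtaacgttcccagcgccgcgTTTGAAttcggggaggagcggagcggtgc
CCNB2 (chr15:59105026-59105145, plus strand): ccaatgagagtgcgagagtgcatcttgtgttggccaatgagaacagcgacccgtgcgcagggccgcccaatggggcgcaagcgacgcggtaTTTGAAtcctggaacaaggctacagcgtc

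What the arrays read directly is the 60-base probe. The probes of PCNA and KIF20A, each printed in 10 spots, are shown because both reach across an intron, covering 146 and 724 bases of the genome (hg17, the build of the probe positions, which differs from that of the promoters).
PCNA probe (chr20:5043957-5044102): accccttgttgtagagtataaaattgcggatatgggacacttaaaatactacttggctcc
KIF20A probe (chr5:137549980-137550703): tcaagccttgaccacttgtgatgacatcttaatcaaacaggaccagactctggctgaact

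Over all measured known genes, log2 ratios had a median of 0.14 (MB over OM), 0.05 (MB over NM) and 0.10 (NM over OM). The 3 comparisons share arrays, and their values are given side by side. The median was 0.39 in MB over OM over the 17 G1/S genes and -0.03 over the 21 G2/M genes. In NM over OM it was 0.39 and 0.01. In MB over NM it was -0.10 and 0.03. G1/S genes therefore stood above the all-gene median, and G2/M genes a little below it, on both other arrays when set against the original monolayer. Both of these comparisons divide by the same OM array, so their likeness is not independent and may come from that array alone. Counted gene by gene, 15 of 17 G1/S genes and 10 of 21 G2/M genes were higher at all in MB over OM, beside 61.6% of all genes. In NM over OM these counts were 15 of 17 and 11 of 21, beside 58.2%, and in MB over NM 7 of 17 and 13 of 21, beside 53.1%.

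**Figure D2:**
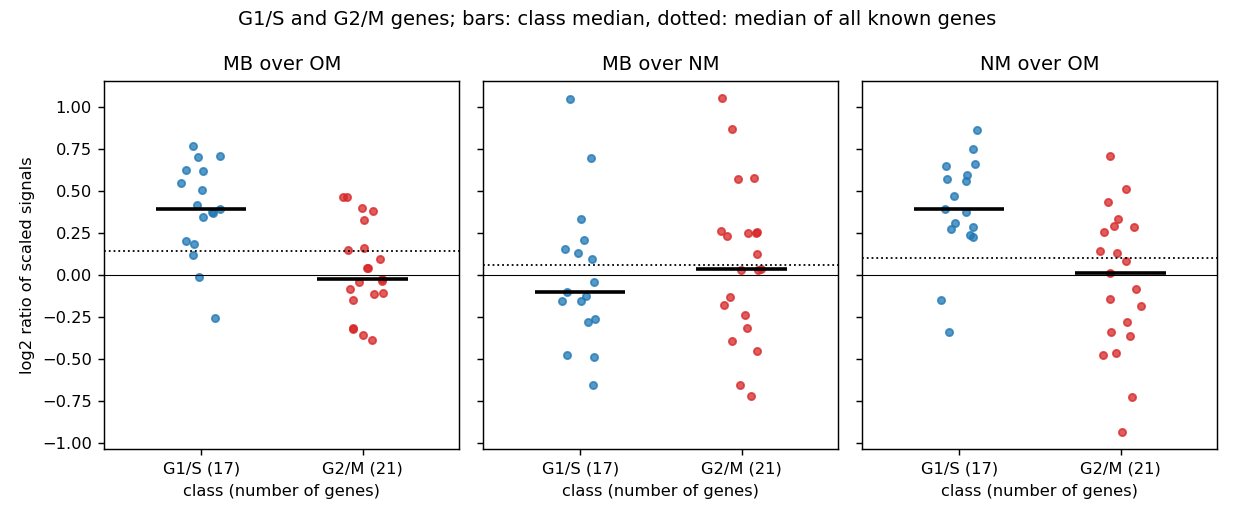
Log2 ratio of scaled signals (y axis) of the G1/S genes (blue, 17) and G2/M genes (red, 21) in each comparison, with 1 point a gene, a bar at the class median and a dotted line at the median of all known genes. For MB over OM and NM over OM the G1/S bar stands at 0.39 and the G2/M bar near 0, while in MB over NM both bars lie near 0.

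The difference between the class medians, which a single scaling factor for each array cannot move, was 0.42 in MB over OM, -0.14 in MB over NM and 0.38 in NM over OM. Under 17 alternative settings the G1/S median stayed above 0 in MB over OM (0.08 to 0.39) and in NM over OM (0.18 to 0.46). The G2/M median stayed below 0 in MB over OM (-0.34 to -0.03), but its sign turned with the scaling in NM over OM (-0.19 to 0.08). In MB over NM both class medians changed sign with the scaling, so no direction is given for them.

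The ratios were small. Of 42 members measured in MB over OM, 6 (14.3%) were at least 1.5-fold higher, beside 19.8% of all genes, and 0 were at least 1.5-fold lower, beside 9.67%. In MB over NM 6 of 43 (14.0%) were higher and 4 lower (9.30%), beside 23.7% and 18.2% of all genes. In NM over OM 7 of 43 (16.3%) were higher and 4 lower, beside 14.6% and 10.2%. These shares were near or below those of all genes, so the members did not stand out by the size of their ratios. At 2-fold, 0 members were higher and 0 lower in MB over OM (7.49% and 4.67% of all genes), 4 higher and 1 lower in MB over NM (12.0% and 9.30%), and 1 higher and 0 lower in NM over OM (5.10% and 4.37%). The 4 were CDK6, CCND1, CDC25A and MKI67, and the single genes were CCND2. At 5-fold, the threshold of the study's methods, no ratio measured on both arrays remained. CCND2 passed it by its signal at background, lower in MB over NM and higher in NM over OM. Among all genes 1.49% were 5-fold higher and 1.11% lower in MB over OM, 2.24% and 1.74% in MB over NM, and 0.948% and 0.679% in NM over OM. In all, 25 of the 43 genes were under 1.5-fold in every comparison.

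**Figure D3:**
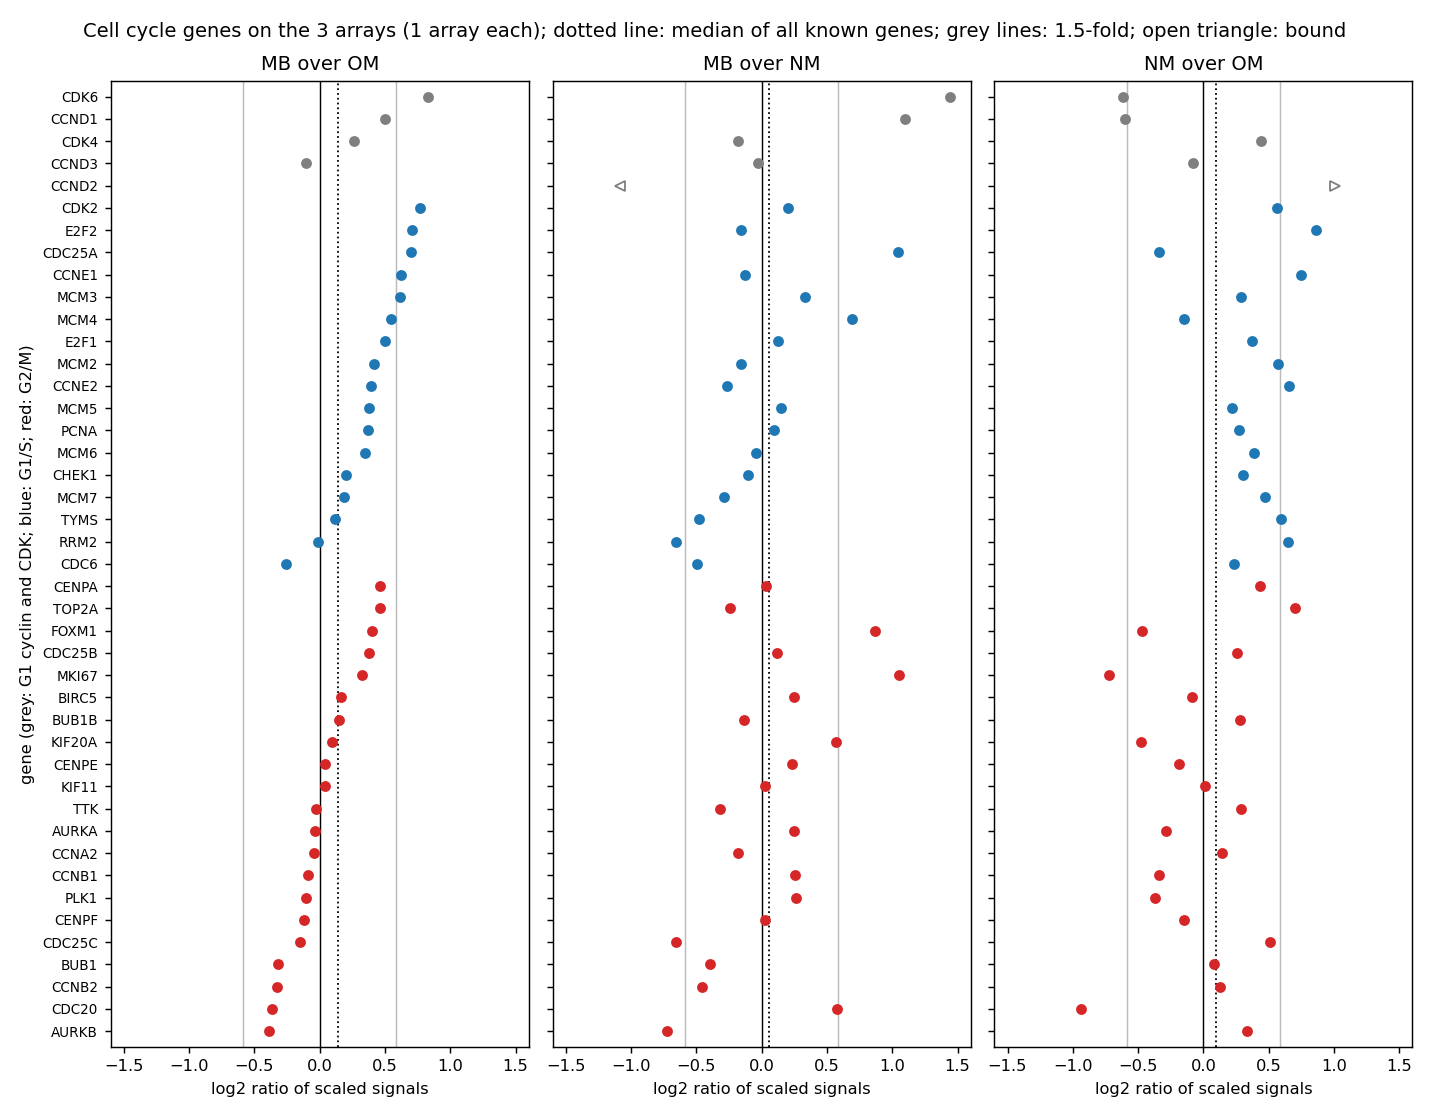
Log2 ratio of scaled signals (x axis) of all members in MB over OM, MB over NM and NM over OM, 1 gene a line, coloured by class and ordered within each class by MB over OM. In MB over OM most G1/S genes (blue) lie to the right of 0 and G2/M genes (red) on both sides, with no gene past the left grey line at 1.5-fold. Open triangles are the bounds of CCND2, which was not measured on OM and MB.

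Among the G1 cyclins and kinases, CDK6 and CCND1 were highest in the bodies. CDK6, a catalytic partner of the D-type cyclins, read 10758 a.u. in OM, 19153 in MB and 7033 in NM. The MB signal was 1.78-fold that of OM and 2.72-fold that of NM, the largest ratio of any member in which both arrays were well above background. On the log2 scale its second probe read 1.22 against OM and 1.41 against NM, the same way as the 0.83 and 1.45 of the brighter probe. CCND1, a D-type cyclin whose gene is amplified in some melanomas, read 17291 a.u. in OM, 24413 in MB and 11430 in NM. The bodies were thus 1.41-fold above OM and 2.14-fold above NM, and NM was 1.51-fold below OM. Its unscaled SD over 10 spots was 386, 565 and 314 a.u. on OM, MB and NM. That is technical error within an array and leaves out variation between cultures. Both other probes of CCND1 pointed the same way, at 0.86 and 0.68 on the log2 scale for MB over OM.

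CDK4, the other partner of cyclin D, had a different order, with 18668 a.u. in OM, 22340 in MB and 25360 in NM, although MB read below OM with spike-in scaling. CCND3 was nearly level at 3266, 3039 and 3095 a.u. in the same order. CCND2 was well above background only on NM, where it read 42.1 a.u. scaled, so NM was at least 2.01-fold higher than OM and at least 2.12-fold higher than MB. Its other 2 probes were at background on all 3 arrays, so that this dim signal rests on 1 spot. Within the D-type cyclins, CCND1 was thus bright and differed between the populations while CCND3 hardly did.

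Of the factors that start S phase, E2F2, CCNE1 and CDK2 were higher on both MB and NM than on OM. E2F2, an activating E2F factor, read 7128 a.u. in OM, 11616 in MB and 12964 in NM, which is 1.63-fold and 1.82-fold OM. Its second, dim probe gave a log2 ratio of -0.11 for MB over OM, against 0.70 from the brighter probe, so the probes do not tell the same direction there. For NM over OM both were above 0, at 0.38 and 0.86. E2F1, whose probe was printed in 10 spots, was 1.42-fold higher in MB and 1.30-fold higher in NM than in OM.

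CCNE1, the cyclin that activates CDK2 at the start of S phase, read 8657 a.u. in OM, 13314 in MB and 14551 in NM. The related CCNE2 was much the same in pattern, at 493 a.u. in OM, 648 in MB and 778 in NM. CDK2 itself read 591 a.u. in OM, 1004 in MB and 871 in NM, a 1.70-fold and a 1.47-fold difference from OM over 10 spots. Every gene of the cyclin E and CDK2 group was therefore lowest in the original monolayer. CDC25A, the phosphatase that activates CDK2, stood apart from them. It read 2084 a.u. in OM, 3390 in MB and 1642 in NM, with its peak in MB, 2.06-fold above NM. Log2 ratios from its second probe were 1.04 (MB over OM) and 1.15 (MB over NM), the same way as the 0.70 and 1.05 of the brighter probe.

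The MCM2-7 proteins form the ring helicase that opens DNA at origins. The bodies exceeded OM for all 6 of their genes, from 0.18 (MCM7) to 0.62 (MCM3) on the log2 scale, beside 61.6% of all genes that were higher. In NM 5 of 6 were higher than in OM, beside 58.2% of all genes. The sign of MCM7 in MB over OM turned below 0 with scaling to the 75th percentile or to the spike-ins. MCM3 read 59592 a.u. in OM, 91282 in MB and 72561 in NM. MCM4 was the exception below OM in NM, with 7270 a.u. in OM, 10603 in MB and 6560 in NM. Its MB signal was 1.62-fold that of NM. Their loading factor CDC6 did not follow them. It was the lowest G1/S gene in MB over OM, at 10514 a.u. in OM, 8798 in MB and 12369 in NM.

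PCNA, the sliding clamp of the replicating polymerases, was 1.29-fold higher in MB and 1.21-fold higher in NM than in OM. Of its 10 spots, 10 were used on OM, 8 on MB and 8 on NM. Enzymes that supply nucleotides had their highest signal in NM. TYMS, which makes thymidylate, read 39990 a.u. in OM, 43319 in MB and 60402 in NM. RRM2, the small subunit of ribonucleotide reductase, read 11689, 11578 and 18273 a.u. in the same order, so that NM was 1.56-fold OM. That ratio stayed at least 1.5-fold under 11 of 17 alternatives. The second RRM2 probe gave 0.30 for MB over OM on the log2 scale and 0.63 for NM over OM. CHEK1, the kinase that guards stalled forks, differed by under 1.5-fold throughout, as did E2F1, MCM2, MCM5, MCM6, MCM7, PCNA and CDC6.

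The G2/M genes lay on both sides of 0. Against OM, the bodies gave values from -0.39 (AURKB) to 0.46 (CENPA and TOP2A) on the log2 scale, and none of the 21 reached 1.5-fold. FOXM1, the transcription factor that drives many of them, read 9702 a.u. in OM, 12776 in MB and 7012 in NM. MKI67, which encodes the proliferation marker Ki-67, had the same order, with 1422 a.u. in OM, 1784 in MB and 860 in NM. MB was thus 1.82-fold NM for FOXM1 and 2.07-fold NM for MKI67, and MKI67 was 1.65-fold lower in NM than in OM.

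CDC20, the activator of the anaphase-promoting complex, was highest in OM. It read 12463 a.u. in OM, 9697 in MB and 6507 in NM. NM was therefore 1.92-fold below OM. That was the largest ratio of a G2/M gene against OM, and it kept at least 1.5-fold under all 17 alternatives. Some of these could not move it, such as the filters on dim probes and the series table, which holds the same values. TOP2A, the topoisomerase that untangles chromosomes, ran the other way, with 11252 a.u. in OM, 15508 in MB and 18324 in NM.

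AURKB, the kinase of the chromosomal passenger complex, and CDC25C, a phosphatase that activates CDK1, were lowest in MB. AURKB read 2039 a.u. in OM, 1555 in MB and 2568 in NM. CDC25C read 2036, 1837 and 2900 a.u. in the same order. The NM signal was 1.65-fold that of MB for AURKB and 1.58-fold for CDC25C. In contrast AURKA, which acts at the spindle poles, PLK1, a kinase of mitotic entry, and CCNB1, the mitotic cyclin, were lowest in NM, at -0.28, -0.37 and -0.34 on the log2 scale against OM. Their log2 ratios for MB over OM were between -0.11 and -0.04.

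The spindle checkpoint genes BUB1, BUB1B and TTK gave -0.32, 0.15 and -0.03 for MB over OM and 0.08, 0.28 and 0.29 for NM over OM. Of the centromere genes, CENPA, the centromeric histone, was 1.38-fold higher in MB and 1.35-fold higher in NM than in OM, while CENPE and, by its brightest probe, CENPF differed by less than 1.2-fold in every comparison. The second CENPF probe was 1.45-fold higher in MB than in NM and 1.44-fold lower in NM than in OM. KIF20A, a kinesin of cytokinesis, read 6408 a.u. in OM, 6837 in MB and 4606 in NM over its 10 spots. KIF11, the kinesin that pushes spindle poles apart, was level by its brighter probe (0.04 for MB over OM), but its second probe gave -0.56. The remaining G2/M genes, BIRC5, CCNA2, CCNB2 and CDC25B, were under 1.5-fold in every comparison. The weak probe of CCNB2 read 79.5 a.u. unscaled on OM and did not clear background on the other arrays.

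Over the 11 other probes measured in MB over OM, 6 pointed the same way as the brightest probe of their gene. The 5 that did not were those of E2F2, RRM2, KIF11, CCND3 and CENPF. In MB over NM 9 of 10 pointed the same way, and in NM over OM 9 of 11. The sign of these 5 genes in MB over OM thus depended on the probe.

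Ratios were also split by promoter motif within each class. For MB over OM the median was 0.39 on the log2 scale in the 10 G1/S genes with an E2F motif and 0.20 in the 3 without it (CCNE1, CHEK1 and RRM2). For NM over OM the medians were 0.38 and 0.64. Among G2/M genes, the 10 with a CHR motif had a median of -0.03 and the 7 without it -0.04 for MB over OM. Having the motif therefore went with little difference inside the G2/M class, and with a difference of either sign between comparisons in the G1/S class.

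In a wider list of cell cycle genes, the G1/S median again exceeded the G2/M median against OM, by less than among the members. Of 58 other G1/S genes, 57 were on the array and all 57 were measured. Their median log2 ratio was 0.17 for MB over OM, against -0.00084 for 65 other G2/M genes, a difference of 0.17. The G1/S value lay close to the 0.14 of all genes. For NM over OM the medians were 0.43 and 0.12, a difference of 0.31, and both lay above the 0.10 of all genes. For MB over NM they were -0.21 and -0.11, both below the 0.05 of all genes. Higher at all in MB over OM were 42 of 57 and 32 of 65, beside 61.6% of all genes. In NM over OM these were 47 of 57 and 42 of 65, beside 58.2%, and in MB over NM 18 of 57 and 26 of 65, beside 53.1%.

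At 1.5-fold, 7 of the 57 G1/S genes (12.3%) were higher and 1 (1.75%) lower in MB over OM, both below the 19.8% and 9.67% of all genes. In NM over OM 16 (28.1%) were higher and 2 (3.51%) lower, beside 14.6% and 10.2%. In MB over NM 6 (10.5%) were higher and 13 (22.8%) lower, beside 23.7% and 18.2%. Of the 65 G2/M genes, 0 were higher and 1 lower in MB over OM, 7 (10.8%) higher and 1 lower in NM over OM, and 5 (7.69%) higher and 16 (24.6%) lower in MB over NM.

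The named genes of these lists span both directions. UHRF1, which carries DNA methylation through replication, read 6808 a.u. unscaled in OM, 11888 in MB and 6249 in NM, and HELLS, a chromatin remodeller, 2037, 3417 and 2267. CDT1, which loads MCM2-7 together with CDC6, was lowest in MB, with 20195 a.u. in OM, 12909 in MB and 35875 in NM, all unscaled. MB was 1.53-fold below OM and NM was 2.03-fold above it. CDC6 and CDT1, which are not all of the loading factors, were thus lower in MB than in OM. Origin recognition genes of the wider list read 0.51 and 0.04 on the log2 scale in MB over OM, so the loading factors shared no direction. The 6 helicase genes were higher in MB than in OM, MCM7 not under every scaling.

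Of the other S-phase genes, POLD3, a subunit of polymerase delta, was 2.21-fold higher in NM than in OM, and GINS1 was 1.57-fold lower. Of the other mitotic genes, the Ndc80 complex members NDC80 and SPC25 were 1.80-fold and 2.00-fold higher in NM than in OM. GTSE1, a microtubule-binding protein of G2, was 1.65-fold lower there. In MB, INCENP, the scaffold of the AURKB complex, was 1.41-fold higher and CEP55, a midbody protein, 1.57-fold lower than in OM.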

How the data were processed

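Total RNA of the 3 populations was amplified, labelled with Cy3 and hybridised to 3 arrays of 1 slide. The authors deposited spot intensity values from Agilent Feature Extraction (version 9.5.3.1), on a linear scale in arbitrary units. Per the file headers, a fitted background surface was subtracted, a multiplicative trend was divided out and low signals were replaced by surrogates. The deposited series table holds the same intensity values. Of 43376 spots, 77 to 81 outlier spots an array were left out, repeated spots of 1 probe were averaged, and arrays were scaled to the average of 3 housekeeping genes (ACTB, GAPDH and HSP90AA1). A gene was compared where it was well above background on at least 1 array of the pair. Where the dimmer array was not, a fold given for a member is a bound. It is set against the lowest signal well above background there (20.9 a.u. on OM, 19.4 on MB, 29.1 on NM). Medians, counts and shares used the processed signals as they were, surrogates included. Genes with a RefSeq NM_ accession were called known, and the members were taken by symbol.

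The members and the other gene lists were chosen with earlier results of these data known. All members could be named. Those at least 1.5-fold apart in a comparison got their signals on every array, with others shown where a sentence needed them. Of each other list, the 2 highest and 2 lowest genes in MB over OM and in NM over OM could be named. Number of arrays limits the precision. Promoter windows came from RefSeq and motifs were matched exactly.

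Alternatives covered scaling (75th percentile, quantile, none, geometric mean, 6 housekeeping genes, HSP90AB1, spike-ins, median of all genes), no background subtraction, normexp with an offset of 50 (R 4.3.3, limma 3.58.1), filters on dim probes, outlier spots, probe choice, class membership and fold thresholds. Tables and plots were made with pandas 2.3.3, numpy 2.4.6 and matplotlib 3.10.9 (Python 3.11.15). The calls were also run on simulated arrays with technical spot error only, which leaves out variation between cultures. All 100 genes changed 2-fold and 0 of 13071 unchanged genes were called. With spot error so small beside a 1.5-fold cut, this outcome was fixed in advance and gives the calls no support.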

Additional observations from a re-analysis of the deposited data

How the results depend on the processing

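In MB over OM, the median log2 ratio over the members (0.19) was 0.0044 with scaling to the 75th percentile, 0.052 with the median of all genes set to 0 and -0.12, the other direction, with spike-in scaling. The count at least 1.5-fold higher (6) was 1, 2 and 0 under the same settings in that order, and 0 with a 2-fold or 5-fold threshold. The count at least 1.5-fold lower (0) was 4 with spike-in scaling and 1 with the median over the probes of a gene. In MB over NM, the members' median (0.03) was -0.087 with the 75th percentile, 0.18 without scaling, -0.067 with the geometric mean of the housekeeping genes, 0.19 with 6 housekeeping genes, -0.16 with spike-in scaling and -0.044 with the median over probes. The count higher (6) was 0 at 5-fold, and the count lower (4) was 1 without scaling, 1 with 6 housekeeping genes, 7 with spike-in scaling and 1 (CCND2, by a signal at background) at 2-fold and at 5-fold. In NM over OM, the median (0.25) was 0.18 with the 75th percentile, 0.11 with quantile normalization, 0.065 without scaling, 0.32 with the geometric mean, 0.054 with 6 housekeeping genes, 0.13 with spike-in scaling and 0.16 with all genes centred. The count higher (7) was 4, 3 and 2 with the first 3 of these, and 2 with 6 housekeeping genes, 3 with spike-in scaling and 4 with all genes centred, and 1 at 2-fold and at 5-fold (CCND2). The count lower (4) was 2 with the geometric mean and 0 at 2-fold and at 5-fold. The cause of these moves was not tested, except that a higher fold leaves fewer genes past it. Of the members at least 1.5-fold higher in MB over OM, CDK6 stayed so under 16 of 17 alternatives and CDK2 under 15. CDC25A and E2F2 stayed so under 13, and CCNE1 and MCM3 under 12. In MB over NM, MCM4, AURKB and CDC25C kept at least 1.5-fold under 15 and RRM2 under 13. In NM over OM, CCND1 kept it under 16, CDK6 15, CCNE1 14, TOP2A 13, RRM2 11, and CCNE2 and TYMS 10. The others measured on both arrays kept it under all 17. These tallies include settings that cannot move a given ratio, such as the series table with its same values and, for bright genes, the filters on dim probes.

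The difference of the class medians was 0.17 (MB over OM) and 0.31 (NM over OM) with other pathway genes in place of the members. It was -0.22 in MB over NM and 0.47 in NM over OM with the median over probes, and 0.29 in NM over OM with quantile normalization. The difference kept its sign in all 3 comparisons under all alternatives run, but many of these could not change it. A single scaling factor for each array leaves it as it was, and a fold threshold does not enter it. Of 22 alternatives, 20 were planned. With CCND2 at its bound (dim signals raised to the floor) the members' medians were 0.19, 0.03 and 0.25 in the 3 comparisons, as without it. That setting and no trend correction were chosen after seeing the data. No paired analysis was possible because each population has 1 array, for which reason no replicate could be left out either. The slide could not serve as a block because all 3 arrays share it.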

Other observations

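The proteins that hold the G1 step back formed a list of 10 genes, of which 9 were measured on at least 1 array. All 9 read higher in NM than in OM, beside 58.2% of all genes, except that CDKN1A read lower under 7 of the 8 other scalings, all but the geometric mean. Their median log2 ratio was 0.53 beside 0.10 over all genes, and 3 of 9 were at least 1.5-fold higher, beside 14.6% of all genes. In MB over OM 6 of 9 (66.7%) were higher, near the 61.6% of all genes, and the median of 0.11 lay below the 0.14 of all genes. CDKN1B (p27) read 2506 a.u. unscaled in OM, 2409 in MB and 3928 in NM, and CDKN1C (p57) 1404, 1730 and 2233 in the same order. Both were thus highest in NM, 1.79-fold and 1.81-fold above OM after scaling. CDKN2C (p18), which inhibits CDK4 and CDK6, was highest in MB, with 23641 a.u. unscaled in OM, 45511 in MB and 30043 in NM, a 1.97-fold difference of MB from OM. Its relative CDKN2D (p19) was lowest in MB, with 29232, 22928 and 39816 a.u. in the same order. CDKN2A was dim, at 174 to 214 a.u. unscaled over the 3 arrays, and CDKN2B was not well above background on any of them. CDKN1A (p21) was level, at 0.05 on the log2 scale for MB over OM and 0.01 for NM over OM.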
